A study of Homo sapiens with 6 samples.

Results

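The guanylate binding proteins GBP1, GBP2, GBP3, GBP4 and GBP5 were followed in A549 cells, a human lung adenocarcinoma line, after overexpression of the RNA-binding protein CELF6. They are the genes whose deposited symbol is GBP1 to GBP5, 5 of the 29889 genes in the count table, and each of the 5 was among the 15847 genes tested. CELF6-OE cells received a plasmid carrying CELF6 and Control cells received the empty plasmid, both with Lipofectamine 2000, and RNA was taken at 48 h. Each group held 3 libraries, prepared as biological replicates, and no untransfected cells were among the groups. The cells were a transfected culture and not a selected clone, so a library averages over cells that took up different amounts of plasmid. In such bulk RNA, fewer cells expressing a gene and less of its RNA per cell cannot be told apart.

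Guanylate binding proteins are large GTPases of the dynamin superfamily that are made in response to interferons. They gather on the membranes of invading bacteria, on parasite vacuoles and on sites of virus assembly, where they help to break membranes open or to start inflammatory signalling. Interferon gamma is their strongest inducer and acts through STAT and IRF transcription factors, while type I interferons induce them as well. In airway epithelium they belong to the defence that a cell mounts on its own.

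All 5 transcripts fell in CELF6-OE. GBP4 and GBP5 fell most, 6.13-fold and 6.59-fold, GBP1 fell 3.52-fold, and GBP2 and GBP3 fell 2.69-fold and 2.48-fold. Of the tested genes that flank the GBP cluster on chromosome 1, the pseudogene GBP1P1 was lower too, 7.68-fold. None of the 10 others reached both the p and the fold change used to call a gene. Over all genes tested, 5.91% were called lower and 1.36% higher. CASP4, GSDMD and APOL3, which act with the GBPs against bacteria in the cytosol, fell too. None of the 6 tested enzymes that attach or process the lipid anchor of some GBPs was called, which is near the share over all genes.

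In GENCODE v44, on GRCh38, the 5 genes lie on the minus strand of chromosome 1, between 89006679 and 89272860, a span of 266 kb. By increasing coordinate, GBP3 (ENSG00000117226) runs from 89006679 to 89022894 and GBP1 (ENSG00000117228) from 89051882 to 89065360. GBP2 (ENSG00000162645) follows from 89106132 to 89150456, GBP4 (ENSG00000162654) from 89181144 to 89198942 and GBP5 (ENSG00000154451) from 89256189 to 89272860. GBP2 overlaps GBP7 on the same strand, and GBP7 held 1 count in 1 Control library and 0 in the other 5. GBP2, GBP4 and GBP5 also overlap antisense lncRNA genes of this annotation, and on their own strand GBP2 overlaps a lncRNA gene (ENSG00000289582) and GBP3 a Y RNA gene. These were not analysed here, their reads could be counted with the members, and the strand setting of the counting is not given in the sources used here.

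Promoter sequences from RefSeq (GRCh38.p14, 250 bases before to 50 bases after the annotated start) matched 3 of the 5 members, GBP1, GBP3 and GBP4, and no entry matched GBP2 or GBP5. They are shown because the members moved together and because interferon-driven genes often carry an interferon-stimulated response element (ISRE), the site that IRF and STAT complexes read. The motif searched was the ISRE core, GAAA followed by any 2 bases and GAAA, on both strands. It was found once in each of the 3 promoters, and 3.57% of the 35116 promoters in the table hold it. Each match lay on the strand opposite to the gene, so that it reads as TTTC, 2 bases and TTTC below. The windows of 30 bases, with the core in capitals and 10 bases on either side, lie at chr1:89065316-89065345, chr1:89022845-89022874 and chr1:89198927-89198956, all on the minus strand and written 5′ to 3′:
GBP1: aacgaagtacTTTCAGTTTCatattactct
GBP3: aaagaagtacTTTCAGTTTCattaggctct
GBP4: gtgcatgtccTTTCAATTTCggttctcaca

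The GBP1 and GBP3 windows had 25 of 30 bases in common and identical cores. Each of them shared 16 of 30 bases with the GBP4 window, and 9 of the 10 bases of the core. Counted from the RefSeq start, the core lay at -127 to -118 in GBP1, at 3 to 12 in GBP3 and at -4 to 6 in GBP4. GENCODE v44 places the 5′ end of GBP1 further upstream than RefSeq does, at 89065360, so that its core falls within the GENCODE gene. The second motif searched was the core of the gamma-activated sequence that STAT dimers read, TTCNNNGAA on both strands, which does not overlap the ISRE matches. It was found in GBP3 alone of these 3, at -15 to -7 as TTCCTTGAA, and 7.66% of the promoters in the table hold it. GENCODE v44 places the 5′ end of GBP3 further upstream as well, at 89022894, so that this match falls within the GENCODE gene. These are matches of letters, and binding was not measured.

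The targeted gene matched the labels. CELF6 had 18646, 20789 and 11571 counts in CELF6-OE replicates 1 to 3 and 0 counts in each Control library, at least 5827-fold higher when each Control library is set to the 3 counts that a count of 0 allows, a level of 0.0826 CPM (counts scaled to library size). CELF6-OE replicate 3 held 61.2% of the mean CELF6 level of the other two. The library totals were 33748328 to 35413404 counts in CELF6-OE and 36422617 to 37920700 in Control. The epithelial keratins KRT7, KRT8 and KRT18 were at 101203 to 229368 counts in the 6 libraries, while the epithelial marker EPCAM was at 61 to 135. The leukocyte marker PTPRC was at 0 to 2 counts, and the endothelial markers KDR, VWF and CDH5 were at 0 to 2. Other leukocyte markers were higher than PTPRC, with CD14 at 225 to 310 counts, ITGAM at 54 to 109 and CD79A at 12 to 24. The 6 epithelial markers summed to 10235 to 12018 CPM in CELF6-OE and 12929 to 15420 in Control, and 1 of the 6, CDH1, was called lower, with -1.62 on the log2 scale. The leukocyte markers summed to 8.56 to 11.3 CPM in CELF6-OE and 9.38 to 10.5 in Control, and ITGAM was called lower among the 3 of them tested. CD3D, CD3E and NKG7 had no row in the count table. TEK had no row in the count table, and the other endothelial markers summed to 0.0825 to 0.175 CPM in CELF6-OE and 0.299 to 0.508 in Control. The 1 that was tested, PECAM1, at 3 to 17 counts, was called lower. PECAM1 passed the count filter through its Control libraries alone, which favours a lower call in advance. The part of these marker differences in the GBP values was not tested.

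GBP1 is the best studied member, a farnesylated GTPase that coats bacterial lipopolysaccharide and builds the platform on which other GBPs assemble. Its FPKM, the number of fragments scaled to transcript length and library size, was 9.93, 8.19 and 6.28 in Control replicates 1 to 3 and 2.06, 2.16 and 2.84 in CELF6-OE replicates 1 to 3. Every CELF6-OE library lay under every Control library, and the lowest Control value was well over the highest CELF6-OE value. The log2 fold change was -1.82 (standard error 0.16), and the edgeR quasi-likelihood test gave a p of 3.69e-05 after Benjamini-Hochberg adjustment. The counts were 227, 243 and 304 in CELF6-OE and 1142, 980 and 752 in Control.

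GBP2 carries a geranylgeranyl anchor and joins GBP1 on bacteria. Its FPKM was 3.42, 3.13 and 2.48 in Control replicates 1 to 3 and 1.07, 1.05 and 1.31 in CELF6-OE replicates 1 to 3. The groups did not overlap. The log2 fold change was -1.43 (standard error 0.15), with an adjusted p of 0.000104 in the same edgeR test.

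GBP3, the closest relative of GBP1, also takes part in the recruitment of caspase-4. Its FPKM was 6.95, 4.81 and 4.0 in Control replicates 1 to 3 and 1.97, 1.9 and 2.59 in CELF6-OE replicates 1 to 3. The groups did not overlap, and Control replicate 1 stood above the other Control libraries. The log2 fold change was -1.31 (standard error 0.18), with an adjusted p of 0.000629 in the same edgeR test. Reads from GBP1, GBP3 and the pseudogene GBP1P1 can match more than one of these similar genes, and the authors counted only reads with a unique location, so how their reads were divided is uncertain.

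GBP4 lacks a lipid anchor and joins the coat that GBP1 forms, where it helps to activate caspase-4. Its FPKM was 2.46, 2.29 and 2.18 in Control replicates 1 to 3 and 0.32, 0.33 and 0.5 in CELF6-OE replicates 1 to 3. The Control libraries lay close together, with a coefficient of variation of 6.11%, and far above the CELF6-OE libraries. The log2 fold change was -2.62 (standard error 0.15), with an adjusted p of 3.44e-06 in the same edgeR test.

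GBP5, a geranylgeranylated protein of the Golgi, restrains the protease furin and thereby the maturation of viral envelope proteins. It was the least abundant member, with 42, 45 and 47 counts in Control replicates 1 to 3 and 0, 7 and 12 in CELF6-OE replicates 1 to 3. Its FPKM was 0.55, 0.57 and 0.59 in Control, and 0, 0.09 and 0.17 in CELF6-OE. The 0 counts of CELF6-OE replicate 1 leave room for 3 counts, an FPKM of 0.0412, which is still under the other two CELF6-OE libraries. GBP5 passed the count filter (minimum count 10) through its Control libraries, which favours a lower call in advance. The log2 fold change was -2.72 (standard error 0.49), with an adjusted p of 0.00339 in the same edgeR test. It was -2.15 without CELF6-OE replicate 1 and -3.58 without CELF6-OE replicate 3, so the size of the change rested on these libraries, while GBP5 was called without either.

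**Figure D1:**
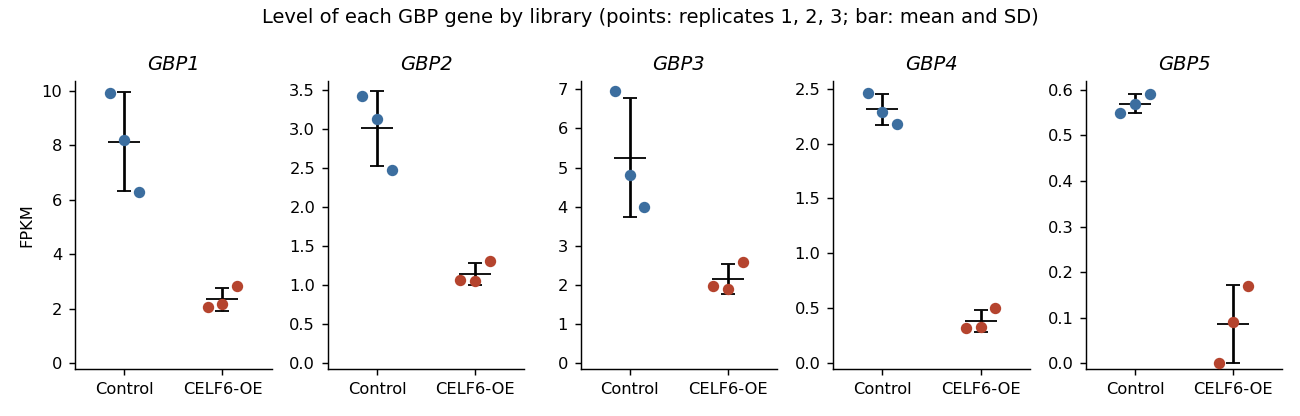
Level of GBP1 to GBP5 in FPKM (vertical axis, linear, scaled separately for each gene) in Control and CELF6-OE. Points are the libraries of replicates 1, 2 and 3 from left to right, and the bars give the mean and SD of 3 libraries. For each gene the lowest Control library lies above the highest CELF6-OE library, as for GBP4, at 2.18 against 0.5.

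A gene was called where its p was under 0.01 and its fold change at least 1.5, the thresholds of the study's methods. All 5 members were called lower, beside 5.91% of the 15847 genes tested, though GBP5 entered the test through its Control libraries. With an adjusted p under 0.05 in place of the unadjusted one, the 5 were called again, beside 5.82% of all genes. For each of the 5, every CPM value of CELF6-OE lay below every value of Control, as it did for 20.9% of all genes tested. The exact permutation test over libraries, two-sided, gave p = 0.1 for each gene, and 3 libraries against 3 cannot give less. The median log2 fold change of the members was -1.82, against 0.011 over all genes tested, and between 0.366% and 2.03% of all genes tested had a lower log2 fold change than a given member. Across 15 other scalings, filters, tests and sets of libraries, the largest adjusted p of a member was 0.0204, for GBP5 without CELF6-OE replicate 2.

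**Figure D2:**
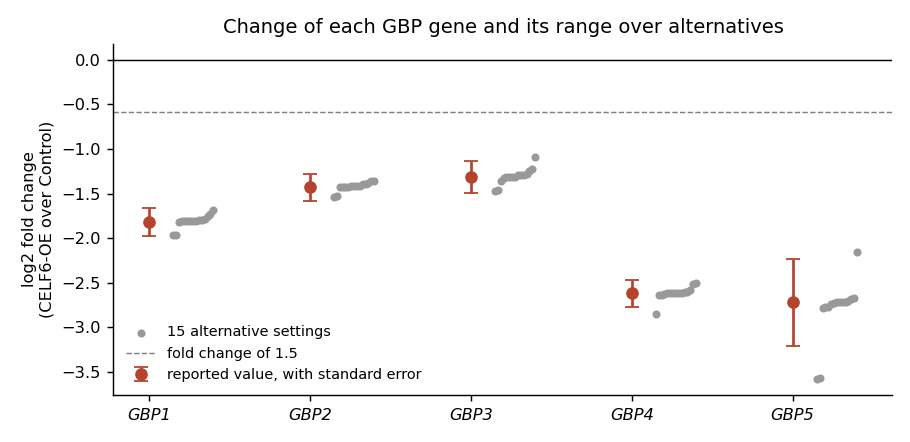
Log2 fold change of CELF6-OE over Control (vertical axis) for each GBP gene. Red points with bars are the reported values with their standard errors, and grey points are the 15 alternative settings. Every point lies below the dashed line of a 1.5-fold change, and GBP5 has the widest range, from -3.58 to -2.15.

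Measured per length in FPKM, the order of the levels in Control was GBP1, GBP3, GBP2, GBP4 and GBP5, and it was the same in CELF6-OE. GBP1 was above GBP3 within each of the 3 libraries of either group, but the ranges of these 2 genes overlapped, since GBP1 was at 6.28 in Control replicate 3 and GBP3 at 6.95 in Control replicate 1. GBP2 and GBP4 were close in Control, where the lowest GBP2 value of 2.48 stood beside a highest GBP4 value of 2.46. In CELF6-OE they were apart, with GBP2 at 1.05 or more and GBP4 at 0.5 or less.

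The FPKM of the 5 members summed to 23.3, 19 and 15.5 in Control replicates 1 to 3 and to 5.42, 5.53 and 7.41 in CELF6-OE replicates 1 to 3. The mean was 19.3 ± 3.9 in Control and 6.12 ± 1.12 in CELF6-OE (SD, n = 3 each). This is a difference of -1.65 in the mean log2 total, 3.14-fold lower in CELF6-OE (exact permutation test, two-sided, p = 0.1, the smallest possible). The make-up of this pool also differed between these libraries, and the shares themselves were not tested. GBP3 supplied 27% ± 2.48 of it in Control and 35.2% ± 1.02 in CELF6-OE, GBP2 15.7% ± 0.933 and 18.8% ± 1.04, and GBP1 42.1% ± 1.43 and 38.5% ± 0.54 (SD, n = 3 each). GBP4 supplied 12.2% ± 1.75 in Control and 6.21% ± 0.47 in CELF6-OE. GBP5 supplied 3.05% ± 0.721 and 1.31% ± 1.18, and its groups nearly met, at 2.36% in Control replicate 1 and 2.29% in CELF6-OE replicate 3.

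**Figure D3:**
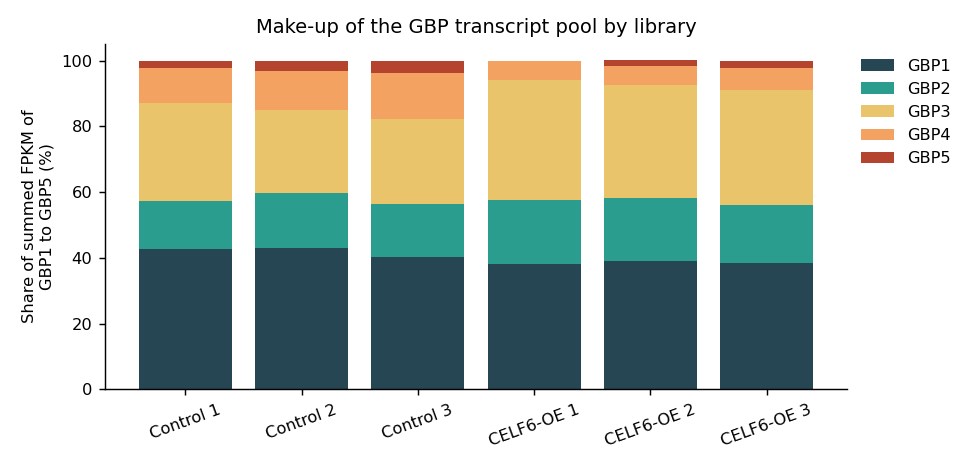
Share of each gene in the summed FPKM of GBP1 to GBP5 (vertical axis, percent) in each library (bars). The GBP4 share is 10.6% to 14% in the Control libraries and 5.9% to 6.75% in the CELF6-OE libraries, while the GBP3 share is 25.3% to 29.8% and 34.4% to 36.3%.

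Whether 2 members changed to different degrees was tested with the log2 ratio of their FPKM within a library, in which the scaling of the library cancels. In 7 of the 10 pairs the ratios of one group all lay above those of the other. In count ratios the same held for 37.8% of all pairs of genes tested, and for 43.6% of all pairs of genes called lower. The GBP3 to GBP4 log2 ratio was 1.5, 1.07 and 0.88 in Control and 2.62, 2.53 and 2.37 in CELF6-OE, a difference of 1.36. For GBP2 to GBP4 the difference was 1.23 and for GBP1 to GBP4 it was 0.84, which turned to -0.17 when 1 was added to each FPKM. In each of these 3 ratios every CELF6-OE library lay above every Control library. The log2 ratio of GBP1 to GBP3 was 0.64 ± 0.13 in Control and 0.13 ± 0.06 in CELF6-OE (SD, n = 3 each), and that of GBP1 to GBP2 was 1.42 ± 0.1 and 1.03 ± 0.09. For GBP2 to GBP5 and GBP3 to GBP5 the differences were 1.34 and 1.47, and -0.36 and -0.43 with 1 added. For GBP2 against GBP3, GBP4 against GBP5 and GBP1 against GBP5 the groups overlapped, with differences of -0.13, 0.11 and 0.95. All ratios with GBP5 use its limit of 3 counts in CELF6-OE replicate 1. The 7 pairs had an exact permutation p of 0.1, two-sided, the smallest possible here, and 0.143 after Benjamini-Hochberg adjustment over the 10 pairs, so none could pass 0.05.

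The spread between the 3 Control libraries also varied among the members, and differences in spread were not tested. The coefficient of variation of the FPKM in Control was 22.4% for GBP1, 16% for GBP2 and 29% for GBP3, and 6.11% for GBP4 and 3.51% for GBP5. At the 42 to 47 counts of GBP5, counting error alone is expected to spread libraries more than this. Its small value therefore says little about the gene. GBP1, GBP2, GBP3 and GBP4 were highest in Control replicate 1 and lowest in Control replicate 3, whereas GBP5 had the opposite order within a narrow range. In CELF6-OE each of the 5 was highest in replicate 3, the library with the least CELF6. This was not particular to the GBPs, since MX1, MX2, STAT2 and IRF1 were highest there too, while IFNB1 was highest in replicate 2. The share over all genes was not computed. In CPM, replicate 3 was 1.53 times the mean of replicates 1 and 2 for GBP4, 1.35 times for GBP1 and for GBP3, and 1.25 times for GBP2. For GBP5 it was 3.64 times, on 12 counts against 0 and 7. CELF6 itself was at 0.612 times. With 3 libraries, no relation between CELF6 and the GBP levels was tested.

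The other family members in the table were GBP7, at 0 counts in 5 libraries and 1 count in the other, and the pseudogene GBP1P1 (ENSG00000225492). GBP6 had no row in the count table. GBP1P1 lies 137 kb beyond GBP5 and had 38, 53 and 33 counts in Control and 4, 4 and 7 in CELF6-OE. It was called lower, with a log2 fold change of -2.94 (standard error 0.35) and an adjusted p of 0.00024 in the same edgeR test. It passed the count filter through its Control libraries alone, which favours a lower call in advance. Its reads may be shared with GBP1, as above.

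Apart from GBP1P1, the neighbours of the cluster were not called. Of 10 such genes tested, 0 were called by edgeR's quasi-likelihood test, DESeq2, limma-voom or edgeR's likelihood ratio test. The quasi-likelihood test called 5.91% of all genes tested lower and 1.36% higher, and 0 of 10 is near these shares. Of the 10 genes, 5 had an unadjusted p under 0.05, 2 of them lower and 3 higher in CELF6-OE. The median log2 fold change of the 10 was -0.0088. RBMXL1 and CCBL2, a kynurenine aminotransferase gene that GENCODE v44 names KYAT3, end 13.7 kb from GBP3. CCBL2 had 523, 516 and 370 counts in Control against 365, 362 and 363 in CELF6-OE, and its log2 fold change was -0.29 (standard error 0.13). The value of RBMXL1, which encodes an RNA-binding protein, was -0.18 (standard error 0.11). Beyond GBP1P1, LRRC8B, LRRC8C and LRRC8D, subunits of volume-regulated anion channels, had values of 0.32, 0.29 and 0.07. ZNF326, a zinc finger protein gene, was 1.36-fold higher in CELF6-OE (0.44 on the log2 scale), with an adjusted p of 0.0247 in the same edgeR test. It passed the p threshold and missed the fold change. GTF2B, a general transcription factor 115 kb from GBP3, had -0.27, and PKN2, LMO4 and ZNF644 had 0.25, -0.12 and -0.08.

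**Figure D4:**
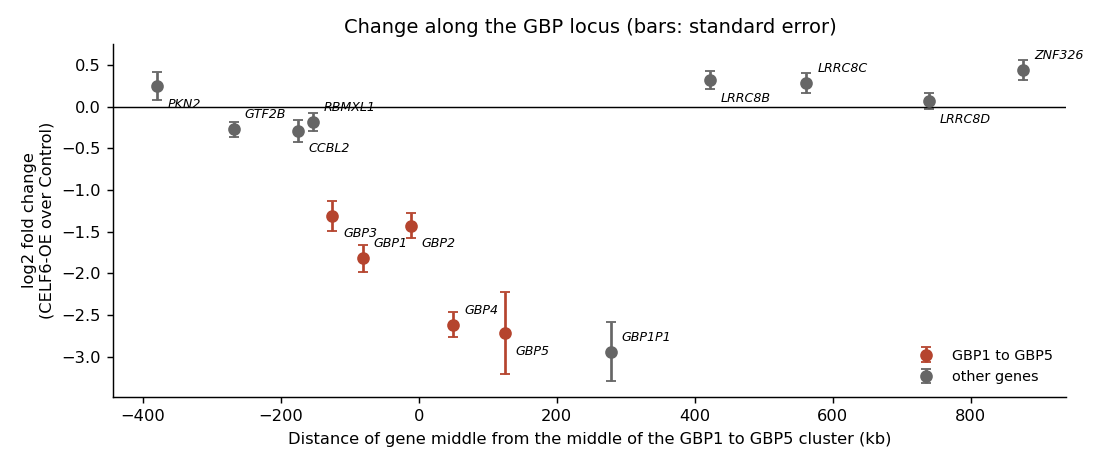
Log2 fold change of CELF6-OE over Control (vertical axis, bars give the standard error) against the distance of each gene's middle from the middle of the cluster in kb (horizontal axis). GBP1 to GBP5 are in red. They and GBP1P1 lie between -2.94 and -1.31, and the other genes shown lie between -0.29 and 0.44.

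A list of 14 genes held those that carry interferon signals towards GBP genes and SOCS1, which restrains such signals. Of these, 12 were tested, and 5, SOCS1 included, were called lower and 0 higher. Over all genes tested, 5.91% were called lower and 1.36% higher. IFNG had no row in the count table, and IRF9 had 0 to 2 counts. The median log2 fold change of the 12 was -0.519. IRF1, the transcription factor that drives GBP genes after interferon gamma, had 4053, 4233 and 4383 counts in Control and 1798, 1771 and 2097 in CELF6-OE. Its groups were far apart, with a log2 fold change of -1.09 (standard error 0.086). IFNB1, the gene of interferon beta, fell by 3.08 on the log2 scale, STAT2, a transcription factor of type I interferon signalling, fell by 1.01, and SOCS1, an inhibitor of JAK kinases, fell by 0.99. The edgeR adjusted p of these 4 genes was 2.01e-05 to 0.00196.

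IFNGR1, a chain of the interferon gamma receptor, had a log2 fold change of -0.59, at the threshold of a 1.5-fold change. It was called in 10 of 15 alternatives. The call ended with scaling by library size alone (-0.56) or by the upper quartile (-0.57), and without CELF6-OE replicate 2 (-0.54), Control replicate 1 (-0.52) or Control replicate 2 (-0.58). The other chain, IFNGR2, had -0.29 and was not called, and IRF2, a relative of IRF1, had -0.55 and was called without CELF6-OE replicate 3 or without Control replicate 3, with -0.61 in either case. JAK1 and IFNAR1 had values of 0.08 and 0.10, JAK2 had -0.49 on 61 to 140 counts and was called without Control replicate 3 (-0.66), and TYK2 and IFNAR2 had -0.21 and -0.28. IFNGR2, IFNAR2 and IRF2 passed the p threshold in the edgeR quasi-likelihood test and missed the fold change. None of the 12 was called higher by DESeq2, limma-voom or the likelihood ratio test of edgeR. With an unadjusted p under 0.05, 10 of the 12 were lower and 0 higher.

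Of 12 partners and effectors of GBPs, 9 were tested, and 5 were called lower and 0 higher, again beside 5.91% and 1.36% of all genes tested. AIM2, NLRP3 and IRGM, at 0 to 2 counts in every library, were not tested. CASP4, the caspase that the GBP platform activates on lipopolysaccharide, had 1187, 1187 and 1018 counts in Control against 471, 459 and 533 in CELF6-OE, or -1.14 on the log2 scale (standard error 0.098). GSDMD, the pore-forming protein that inflammatory caspases cut, had 1492, 1587 and 1731 counts in Control against 619, 604 and 789 in CELF6-OE, or -1.18 on the log2 scale (standard error 0.12). APOL3, which breaks up bacterial membranes once GBP1 has opened the outer layer, had 643, 774 and 721 counts in Control and 49, 63 and 130 in CELF6-OE. Its log2 fold change was -3.06 (standard error 0.26). In each of these 3 genes the groups were far apart, and CELF6-OE replicate 3 was the highest of its group.

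CASP1, the caspase of canonical inflammasomes, fell by 2.61 on the log2 scale, and RNF213, a ubiquitin ligase that marks bacterial lipopolysaccharide, fell by 1.00. The 4 partners that were not called were FURIN, the protease that GBP2 and GBP5 restrain, at -0.04, PIM1, a kinase that phosphorylates GBP1, at 0.03, and the galectins LGALS3 and LGALS8, at -0.30 and -0.25. LGALS3 passed the p threshold and missed the fold change. The edgeR adjusted p of the 5 genes called was 1.61e-05 to 0.000307. The median log2 fold change of the 9 was -0.996.

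The 6 prenylation enzymes tested attach or process the lipid anchors that GBP1, GBP2 and GBP5 carry. None of the 6 was called by edgeR's quasi-likelihood test, DESeq2, limma-voom or the likelihood ratio test. The quasi-likelihood test called 5.91% of all genes tested lower and 1.36% higher, and 0 of 6 is near these shares. An unadjusted p under 0.05 was found for 2 of the 6, ZMPSTE24 and ICMT. Both were higher in CELF6-OE, with log2 fold changes of 0.23 and 0.17. FNTA and FNTB, the subunits of farnesyltransferase, had log2 fold changes of -0.04 and -0.05, with standard errors of 0.076 and 0.074. PGGT1B, a subunit of the enzyme that adds the geranylgeranyl anchor, had 0.14 (standard error 0.11).

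Among 12 other large GTPases of the dynamin superfamily, 2 were called lower, beside 5.91% of all genes tested. They were MX1 and MX2, both antiviral and interferon-induced. MX2 had 2841, 2975 and 2800 counts in Control and 395, 390 and 755 in CELF6-OE. Its log2 fold change was -2.40, and that of MX1 was -1.22. The atlastins ATL1, ATL2 and ATL3, the closest relatives of GBPs outside the family, had -0.05, 0.13 and 0.30. The mitochondrial GTPases MFN1, MFN2 and OPA1 had 0.25, 0.07 and 0.34, and the dynamins DNM1, DNM2, DNM3 and DNM1L had 0.07, -0.30, 0.14 and 0.10. None of these was called, and the median over the 12 was 0.086. ATL3, higher, and DNM2, lower, passed the p threshold and missed the fold change. Their adjusted p was 0.00848 and 0.0206 in the same edgeR test. No gene of the list was called higher by any of the 4 tests. With an unadjusted p under 0.05, 3 were higher and 3, MX1 and MX2 included, were lower.

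**Figure D5:**
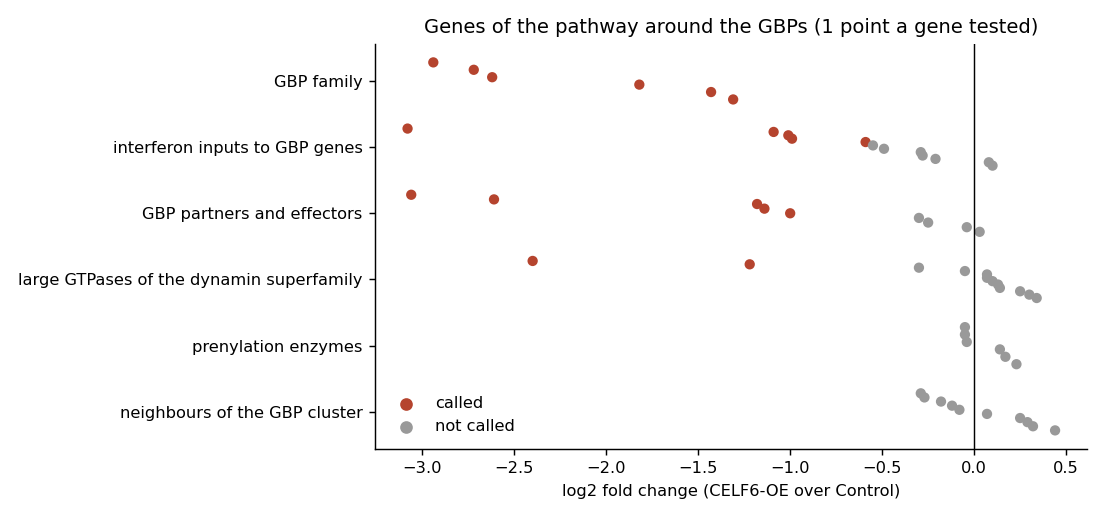
Log2 fold change of CELF6-OE over Control (horizontal axis) for each gene tested, by gene list (rows), with called genes in red and the others in grey. The called genes lie at -0.59 or lower, and the prenylation enzymes and the neighbours of the cluster hold none.

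The genes most like each member over the 6 libraries were those with the smallest root mean square difference between log2 CPM values centred on the gene's mean. Since every library enters and the groups differ, this measure mostly ranks genes by a like change between the groups. For GBP4 the nearest gene was HCP5, a transcript of the HLA region, with a difference of 0.04, followed by XXbac-BPG116M5.17 and ACVRL1, each at 0.10. For GBP1 the nearest were TLR3, a receptor for double-stranded RNA, at 0.13, and LGALS9C and IFI16 at 0.15. TRIM31, C1S and RASGRP3 were nearest to GBP2, at 0.08 to 0.09. CTSO, STARD4 and IFIH1, a sensor of viral RNA, were nearest to GBP3, at 0.10 to 0.11.

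GBP1 and GBP2 differed by 0.21, GBP2 and GBP3 by 0.15, and GBP1 and GBP4 by 0.44. The nearest to GBP5 were CH25H, at 0.37, and ZBTB32, at 0.59, and like GBP5 these had 0 counts in CELF6-OE replicate 1, which sets the measure for genes this low.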

How the data were processed

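RNA from 6 libraries, 3 of CELF6-OE and 3 of Control, was sequenced. Per the study's methods, the authors removed low-quality reads, adaptor sequence and very short reads (FASTX-Toolkit), mapped the remainder by TopHat2 on GRCh38 and kept reads of unique location. The submitters' processing notes list TopHat2 and edgeR. The authors deposited raw counts per gene and FPKM values rounded to 2 decimals. The counting tool, whether it used strand, and the annotation are not given in the sources used here.

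Counts of the 15847 genes kept by filterByExpr (minimum count 10) were scaled with TMM and tested with edgeR 4.0.16 (R 4.3.3) by the quasi-likelihood test, CELF6-OE against Control without covariates, with Benjamini-Hochberg adjustment over all genes tested and a prior count of 0.125. The filter was used because the prior degrees of freedom were infinite without it and 7.15 with it. DESeq2 1.42.0, limma-voom 3.58.1, other scalings, no filter and leaving out libraries were alternatives. A value of 0 FPKM was replaced by the FPKM of 3 counts in ratios of 2 members, a choice made when the 0 was seen. P-values measure the spread between these libraries, and limits cover counting error only. The procedure was tested on simulated data. Named genes were the members, the genes of the lists, CELF6 and the 3 genes nearest to each member. The members and lists were chosen with earlier results of these data known. Library totals ranged from 33748328 to 37920700 counts.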

Additional observations from a re-analysis of the deposited data

How the results depend on the processing

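The 5 GBP genes were called lower in each of the 17 alternatives to the test and its call rule, and 13 genes of the lists, GBP1P1 included, were called lower, with 10 to 15 over these alternatives. Over the 15 alternative fits the log2 fold changes were -1.97 to -1.68 for GBP1, -1.54 to -1.36 for GBP2, -1.47 to -1.09 for GBP3, -2.85 to -2.50 for GBP4 and -3.58 to -2.15 for GBP5, where leaving out a library gave both ends and limma-voom gave -3.57. Genes called higher over all genes tested numbered 216, and 348 without Control replicate 1. The log2 difference of the FPKM total was -1.80 to -1.50 with a library left out, -1.77 from CPM, and -1.02 as the mean of log2(FPKM + 1), where the pseudocount shrinks changes of genes near an FPKM of 1. The number of member pairs whose ratios did not overlap was 7 to 9, but these were not always the same pairs. With log2(FPKM + 1) the groups overlapped for GBP1 to GBP4 and GBP3 to GBP4 (exact permutation test, p = 0.4 and 0.3). They did not overlap for GBP1 to GBP5 and GBP4 to GBP5 in that setting. With log2(FPKM + 1), which shrinks low genes most, 6 differences in ratios changed sign, to -0.17 for GBP1 to GBP4, -0.90 for GBP1 to GBP5, 0.07 for GBP2 to GBP3, -0.36 for GBP2 to GBP5, -0.43 for GBP3 to GBP5 and -0.73 for GBP4 to GBP5. The last was -0.30 without CELF6-OE replicate 1 and up to 0.40 with another library left out. The ratios with GBP5 rest on 0 to 12 counts in CELF6-OE.

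With the replicate number as a replicate block, the 5 members were called with log2 fold changes of -1.81, -1.42, -1.29, -2.63 and -2.77 for GBP1 to GBP5, and 963 genes were called lower in place of 936. With signs permuted within pairs of the same number, the FPKM total gave a log2 difference of -1.65 and p = 0.25 in the exact permutation test, the smallest that 3 pairs allow. Deviations of same-numbered libraries from their group means had correlations of 0.00339, -0.00718 and -0.0643 across genes. Not every library correlated best with its own number, so no pairing by number was seen. Deviations from a mean of 3 libraries are tied to each other, so these correlations cannot exclude a pairing.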
